A study of Homo sapiens with 12 samples.

Results

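The human genes named ZNF with a number that lie on chromosome 19 were followed by position, across SDC3 genotype and IFN-γ treatment. The members were the rows of the deposited count table placed on chromosome 19 whose Ensembl identifier belongs to a protein-coding gene with such a symbol: 247 of the 58051 genes in the table. All cells were THP-1, a human monocytic leukaemia line, differentiated towards macrophages with phorbol 12-myristate 13-acetate (PMA, 20 ng/ml for 24 h). There were 4 groups of 3 libraries each: SDC3-knockout cells (SDC3-KO) with IFN-γ, SDC3-KO cells without it, wild-type (WT) cells with IFN-γ, and WT cells without it. SDC3 encodes the cell-surface proteoglycan syndecan-3, and CRISPR/Cas9 was used for the knockout. How many edited clones stand behind the knockout libraries is not given in the sources used here, so a difference between genotypes and a difference between clones cannot be told apart.

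Most of these genes encode proteins with tandem C2H2 zinc fingers, which bind DNA, often behind a KRAB domain. KRAB domains recruit TRIM28, a scaffold that brings the histone methyltransferase SETDB1, HP1 proteins and deacetylases to the bound site, and many family members are known to silence transposable elements. The genes multiplied by tandem duplication, so chromosome 19 carries them in dense clusters of close relatives.

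SDC3 itself had 237, 237 and 244 CPM (read counts scaled by library size) in SDC3-KO cells with IFN-γ, against 578, 590 and 572 CPM in WT cells with IFN-γ. Without IFN-γ it had 49.9, 48.2 and 43.9 CPM in SDC3-KO cells, against 196, 252 and 242 CPM in WT cells. The transcript was thus lower in every knockout library, though still counted. Library totals ran from 23616738 to 29426415 counts, and 3 counts were worth 0.0925 to 0.130 CPM. Of 9 monocyte and macrophage markers, 8 were well counted in every group, with a lowest group mean of 40.05 CPM, while CD68 averaged 0.131 CPM in SDC3-KO cells with IFN-γ and 0.278 CPM in WT cells with IFN-γ. T cell markers summed to at most 6.10 CPM in any library, and epithelial markers to at most 2.48 CPM. The 4 B cell markers summed to 6.96 to 8.03 CPM in SDC3-KO cells with IFN-γ and 16.9 to 17.995 CPM in WT cells with IFN-γ, mostly PAX5, with MS4A1 at 0 in all 12 libraries. The 4 fibroblast markers summed to 16.01 to 18.6 CPM in SDC3-KO cells with IFN-γ and 7.30 to 8.58 CPM in WT cells with IFN-γ, nearly all COL1A1, with LUM at 0 throughout. The part of these markers in the results was not tested. The summed level of 5 proliferation genes (MKI67, TOP2A, CDK1, CCNB1 and RRM2) was 26.6 to 31.2 CPM in SDC3-KO cells with IFN-γ and 118 to 141 CPM in WT cells with IFN-γ. Without IFN-γ it was 569 to 596 CPM in SDC3-KO cells and 617 to 705 CPM in WT cells.

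Of the 247 members, 214 had enough counts to be tested; 10 of the other 33 had no count in any library. Of the tested members, 194 were at or above the filter's level of 0.358 CPM in all 12 libraries, and 6 passed it in the 3 libraries of at most 1 group. Mean levels of the tested members ran from 0.204 to 124 CPM, with a median of 8.24 CPM, beside 13.2 CPM over all 17119 genes tested. Per kilobase of exon, the highest level was that of ZNF146, which encodes a protein made almost wholly of fingers, at 30.0 CPM per kilobase. ZNF581 followed at 14.5 and ZNF317 at 12.1 CPM per kilobase. ZNF146 (chr19, 36.2 to 37.8 Mb cluster) had 109, 124 and 118 CPM in SDC3-KO cells with IFN-γ, against 136, 136 and 144 CPM in WT cells with IFN-γ. Its SDC3-KO values with IFN-γ all lay below the WT ones (log2 fold change -0.24, SE 0.05, edgeR adjusted p = 1.18e-04).

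A gap of more than 1 Mb between neighbouring members was used to split them into clusters. Of these, 8 held at least 5 tested members, and 14 tested members lay scattered outside them. From the short-arm telomere the clusters lay at 2.8 to 2.9 Mb (5 members, 5 tested), 7.1 to 9.8 Mb (15 members, 13 tested), 11.5 to 12.6 Mb (25 members, 19 tested) and 19.7 to 24.1 Mb (37 members, 25 tested). On the long arm they lay at 36.2 to 37.8 Mb (27 members, 24 tested), 43.5 to 45.1 Mb (24 members, 22 tested), 51.6 to 53.6 Mb (39 members, 37 tested) and 55.5 to 58.5 Mb (59 members, 55 tested). Positions are on hg38. The median member had 12 fingers, and the longest array held 36. The planned KRAB pattern was found in 162 of 247 members. A KRAB-like pattern, loosened after the sequences were seen, was found in 195 of 247 members. Neither pattern was searched for in other genes.

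Many promoters of the cluster at 43.5 to 45.1 Mb share a short sequence. It is shown here because the genes of that cluster also moved together with genotype. The windows below each hold 1 copy of TTCTGGGAA, in capitals, with 10 bases on either side. They come from RefSeq promoters on GRCh38.p14, which run from 250 bases before to 50 bases after a gene's start, and are written 5′ to 3′ on the gene's strand.
ZNF230, chr19:44002827-44002855, plus strand: gacgagtgaaTTCTGGGAActgtagtcca
ZNF222, chr19:44025269-44025297, plus strand: gtccggggaaTTCTGGGAAgtggagtcca
ZNF224, chr19:44094250-44094278, plus strand: tcccagggaaTTCTGGGAAgtgtagtcca
ZNF224, chr19:44094322-44094350, plus strand: tcccggggaaTTCTGGGAAgtggagtcca
ZNF225, chr19:44113307-44113335, plus strand: tcccagggaaTTCTGGGAAgtgtagtcca
ZNF226, chr19:44165035-44165063, plus strand: tgctgtggaaTTCTGGGAAgcgtagtcca
ZNF235, chr19:44305097-44305125, minus strand: ccttggagcaTTCTGGGAActgtagtcca
ZNF180, chr19:44500559-44500587, minus strand: ccgcggaggcTTCTGGGAAttgtagttct

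Promoters were in the table for 216 members. On either strand TTCTGGGAA, chosen after the promoters had been seen, was found in 22 of these (10.2%), 13 of them among the 20 promoters at 43.5 to 45.1 Mb, beside 1.03% of all 35116 promoters. At 51.6 to 53.6 Mb, where members also moved together with genotype, 2 of 32 promoters held it (6.25%). These were ZNF613 and ZNF331, with log2 fold changes of 0.58 and -0.94 for SDC3-KO over WT cells with IFN-γ. ZNF404, which rose most at 43.5 to 45.1 Mb with IFN-γ, held no copy. A longer element, ACTACANNTCCCA, taken from the ZNF850 promoter, was chosen after these sequences had been seen; its letters are close to those of a motif that ZNF143 is known to bind. On either strand it was found in 31 of 216 members (14.4%) and in 1.36% of all promoters; the letters TCCCA and TGGGA let it overlap TTCTGGGAA. A match is only a description of letters in this window.

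The genotype difference followed position on the chromosome (plot of genotype differences by position). With IFN-γ, 69 of the 214 tested members were higher in SDC3-KO cells than in WT cells at an adjusted p under 0.05 in edgeR's quasi-likelihood test, and 34 were lower. Over all genes tested, 22.9% were higher and 24.3% were lower, so 47.2% were called in either direction. The median log2 fold change was 0.06 over the members and -0.01 over all genes; with library totals as the only scaling the members' median was -0.02. Without IFN-γ, 83 members were higher in SDC3-KO cells and 30 lower, beside 25.4% and 24.8% of all genes (50.1% in either direction), and the medians were 0.19 and 0.01. Numbered ZNF genes of other chromosomes had similar shares without IFN-γ, with 83 of 230 higher (36.1%) and 32 lower (13.9%), beside 38.8% and 14.02% of the members. With IFN-γ 54 of them were higher (23.5%) and 40 lower (17.4%), beside 32.2% and 15.9% of the members. Of the other protein-coding genes of chromosome 19, 33.5% were higher without IFN-γ and 24.9% with it.

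Members at 43.5 to 45.1 Mb and at 51.6 to 53.6 Mb were higher in SDC3-KO cells, nearly as whole clusters. At 43.5 to 45.1 Mb, 18 of 22 tested members were higher with IFN-γ and none was lower, with a median log2 fold change of 0.65. Without IFN-γ 20 of 22 were higher and none was lower, with a median of 0.71. At 51.6 to 53.6 Mb, 28 of 37 were higher and 1 was lower with IFN-γ, with a median of 0.58. Without IFN-γ 27 were higher and 1 lower there, with a median of 0.57. These clusters hold 59 tested members, 27.6% of the set, and 46 of its 69 higher calls with IFN-γ (66.7%). Without IFN-γ they hold 47 of the 83 higher calls (56.6%). Among the other 155 tested members 23 were higher and 33 lower with IFN-γ, beside 22.9% and 24.3% of all genes. Their median was -0.08. Without IFN-γ 36 of them were higher and 29 lower, beside 25.4% and 24.8% of all genes, with a median of 0.06. Each of these counts was below the share over all genes. The clusters were examined after results of these data were known, so their counts are a description.

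**Figure D1:**
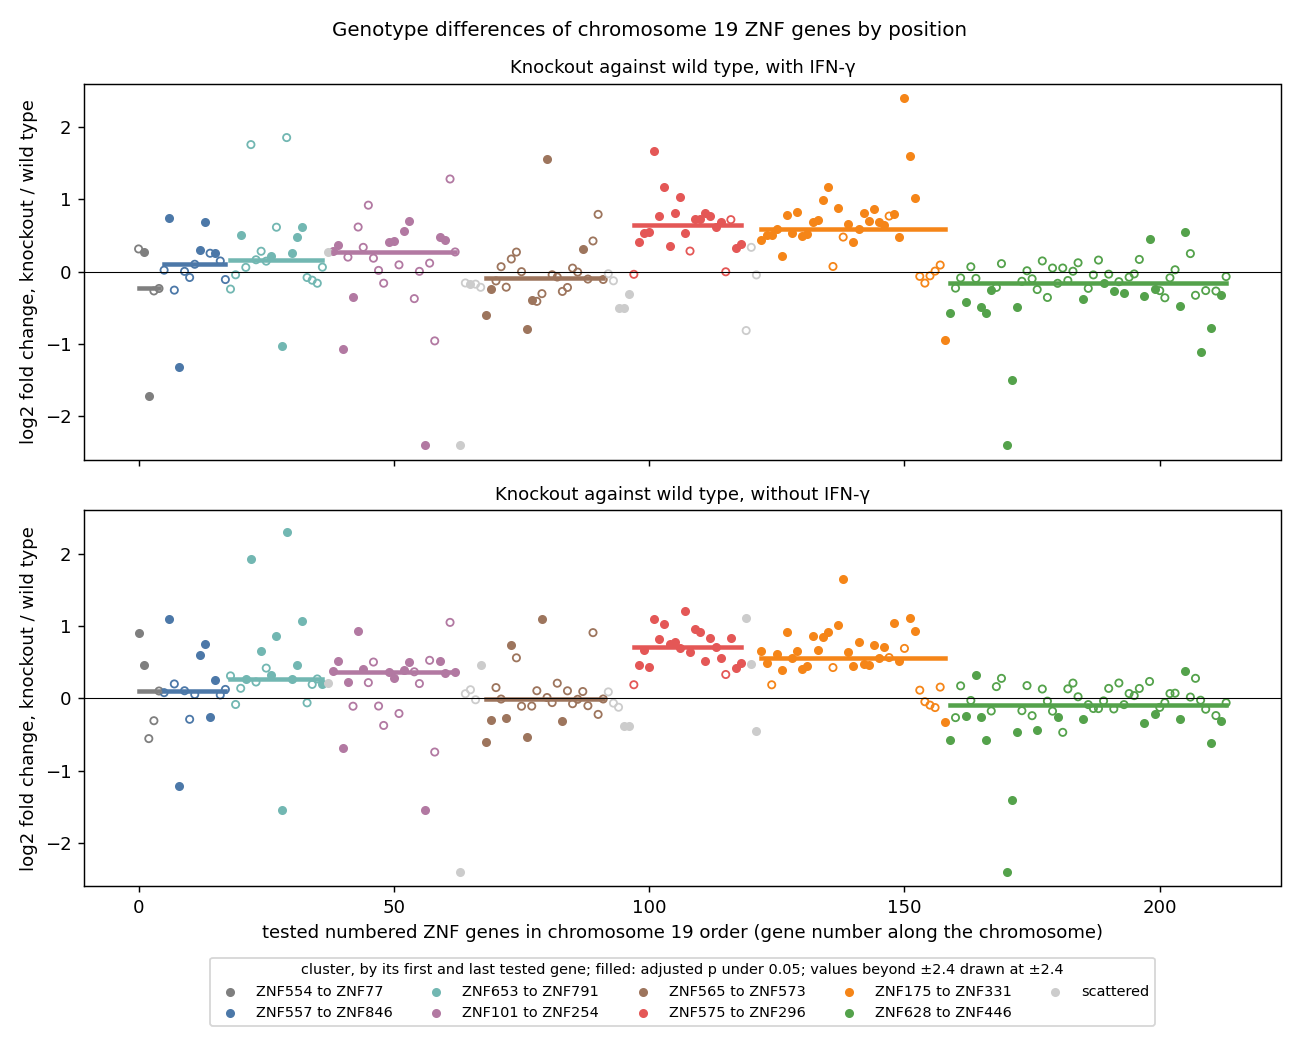
Log2 fold change of SDC3-KO over WT cells for the 214 tested numbered ZNF genes of chromosome 19, in order along the chromosome, with IFN-γ (top) and without (bottom). Each point is a gene, filled where the adjusted p is under 0.05, and each line is a cluster's median. The ZNF575 to ZNF296 cluster has medians of 0.65 and 0.71, and the ZNF175 to ZNF331 cluster, whose last 6 genes lie near or below 0, has medians of 0.58 and 0.57.

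Summed over the cluster at 43.5 to 45.1 Mb, the members had 285, 285 and 292 CPM in SDC3-KO cells with IFN-γ, against 180, 184 and 187 CPM in WT cells with IFN-γ. Without IFN-γ the sums were 320, 321 and 324 CPM in SDC3-KO cells, against 214, 180 and 193 CPM in WT cells. The genotypes did not overlap, and the ratio of means was 1.57 with IFN-γ and 1.64 without. At 51.6 to 53.6 Mb the sums were 598, 604 and 616 CPM in SDC3-KO cells with IFN-γ, against 406, 419 and 420 CPM in WT cells with IFN-γ, a ratio of 1.46. Summed over all 247 members the ratio was 1.09 with IFN-γ and 1.14 without.

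Within the cluster at 43.5 to 45.1 Mb, the largest rise with IFN-γ was that of ZNF404 (chr19:43872363-43901385, minus strand). It had 1.54, 1.55 and 2.22 CPM in SDC3-KO cells with IFN-γ, against 0.561, 0.456 and 0.652 CPM in WT cells with IFN-γ (log2 fold change 1.67, SE 0.28, edgeR adjusted p = 6.38e-06). The groups did not overlap, and the gene was also higher without IFN-γ (1.10, adjusted p = 4.58e-05). ZNF221 had 3.77, 4.60 and 4.70 CPM in SDC3-KO cells with IFN-γ, against 1.68, 2.01 and 2.13 CPM in WT cells with IFN-γ (1.17, SE 0.17, edgeR adjusted p = 1.05e-06). ZNF222 rose by a log2 fold change of 1.04 with IFN-γ and 0.70 without (edgeR adjusted p = 3.06e-06 and 1.95e-04). ZNF223 rose most in the cluster without IFN-γ, by 1.21 (SE 0.19), but 61.3% of its 75-base stretches also occur elsewhere, so its counts may include reads of relatives.

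ZNF224, known as a repressor of the aldolase A gene, was among the more abundant members of that cluster. It had 32.3, 29.8 and 32.9 CPM in SDC3-KO cells with IFN-γ, against 20.4, 17.1 and 19.9 CPM in WT cells with IFN-γ (log2 fold change 0.73, SE 0.09, edgeR adjusted p = 3.95e-08). Without IFN-γ it had 22.8, 25.2 and 23.1 CPM in SDC3-KO cells, against 13.3, 10.0 and 13.5 CPM in WT cells (0.96, SE 0.09, adjusted p = 3.07e-10). All 4 groups were apart, with SDC3-KO cells given IFN-γ highest and WT cells without it lowest. ZNF226, chosen after its values were seen as the most abundant member there in CPM, averaged 40.5 CPM in SDC3-KO cells with IFN-γ and 23.8 CPM in WT cells with IFN-γ.

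In the cluster at 51.6 to 53.6 Mb, ZNF347 (chr19:53124072-53159075, minus strand) differed most between genotypes among the genes named by rule. It had 33.7, 34.6 and 36.5 CPM in SDC3-KO cells with IFN-γ, against 12.2, 10.7 and 11.8 CPM in WT cells with IFN-γ (log2 fold change 1.60, SE 0.08, edgeR adjusted p = 9.81e-17). Without IFN-γ it had 16.2, 17.3 and 16.5 CPM in SDC3-KO cells, against 7.62, 7.25 and 8.18 CPM in WT cells (1.12, SE 0.09, adjusted p = 1.99e-12). No library of one genotype reached the range of the other at the same treatment. ZNF415, named after its values were seen, had a larger log2 fold change there with IFN-γ (3.03, SE 0.66, edgeR adjusted p = 2.74e-04), from means of 0.689 CPM in SDC3-KO cells and 0.0796 CPM in WT cells, which in WT cells is below the worth of 3 counts. Its promoter, shown because ZNF347 is the member that moved most clearly with both genotype and IFN-γ, held neither TTCTGGGAA nor the longer element.
ZNF347, chr19:53159004-53159303, minus strand: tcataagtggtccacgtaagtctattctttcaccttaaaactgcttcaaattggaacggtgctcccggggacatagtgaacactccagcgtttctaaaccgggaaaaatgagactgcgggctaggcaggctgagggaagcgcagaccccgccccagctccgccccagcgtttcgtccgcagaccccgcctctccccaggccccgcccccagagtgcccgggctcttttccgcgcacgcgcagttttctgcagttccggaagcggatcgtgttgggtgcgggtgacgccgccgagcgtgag

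ZNF610 had 5.31, 5.95 and 5.28 CPM in SDC3-KO cells with IFN-γ, against 1.68, 2.55 and 3.13 CPM in WT cells with IFN-γ (log2 fold change 1.17, SE 0.18, edgeR adjusted p = 1.82e-06). ZNF160, reported elsewhere as a repressor of TLR4 in intestinal epithelial cells, was the most abundant member of the cluster in CPM. It had 56.3, 59.2 and 61.5 CPM in SDC3-KO cells with IFN-γ, against 41.7, 41.7 and 43.8 CPM in WT cells with IFN-γ (0.48, SE 0.06, edgeR adjusted p = 2.78e-08). Its genotype groups were likewise apart without IFN-γ (0.52, adjusted p = 3.33e-09).

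The rise ended inside this cluster. From ZNF175 to ZNF665, 28 of 31 tested members were higher with IFN-γ and 27 without, none was lower, and the medians were 0.68 and 0.65. Of the 6 tested members that follow, from ZNF525 to ZNF331, none was higher and ZNF331 alone was lower, and the medians were -0.06 and -0.07. Without IFN-γ the ZNF331 call was lost on leaving out SDC3-KO replicate 2 or WT replicate 3 (edgeR adjusted p up to 0.0766). The boundary was set after the values were seen, so no test is given. ZNF665, the last member on the higher side, had 3.00, 1.79 and 3.33 CPM in SDC3-KO cells with IFN-γ, against 1.84, 0.988 and 1.17 CPM in WT cells with IFN-γ (log2 fold change 1.02, edgeR adjusted p = 9.61e-04). Here the lowest knockout library fell just inside the WT range. ZNF845, one of the first tested members past the boundary, had 18.2, 19.1 and 20.0 CPM in SDC3-KO cells with IFN-γ, against 19.5, 22.1 and 22.4 CPM in WT cells with IFN-γ (-0.16, SE 0.08, edgeR adjusted p = 0.102). Summed CPM gave a ratio of 1.59 up to ZNF665 and 0.91 after it with IFN-γ, and 1.56 and 0.94 without.

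Protein-coding neighbours that are not numbered ZNF genes were read along the same stretch (plot of genotype differences along the long arm). Inside 43.5 to 45.1 Mb, 13 of 21 neighbours were higher in SDC3-KO cells with IFN-γ and 1 was lower, with a median of 0.31. Between the end of the 36.2 to 37.8 Mb cluster and 43.5 Mb, 6 of 91 non-members were higher and 41 lower, with a median of -0.20. Between both higher clusters, 55 of 151 non-members were higher and 29 lower, with a median of 0.07. In 1-Mb bins of that gap the median was 0.48 at 46 Mb, 0.52 at 47 Mb, -0.02 at 48 Mb and -0.29 at 50 Mb, from 12, 17, 29 and 15 genes. Without IFN-γ the same medians were 0.30, -0.17, 0.12, 0.39, 0.49, 0.06 and -0.35. Higher neighbours thus went on past the last member of the 43.5 to 45.1 Mb cluster. Inside 51.6 to 53.6 Mb, 3 of 7 neighbours were higher and 1 lower with IFN-γ (median 0.39), and 3 were higher and 2 lower without (median 0.28).

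**Figure D2:**
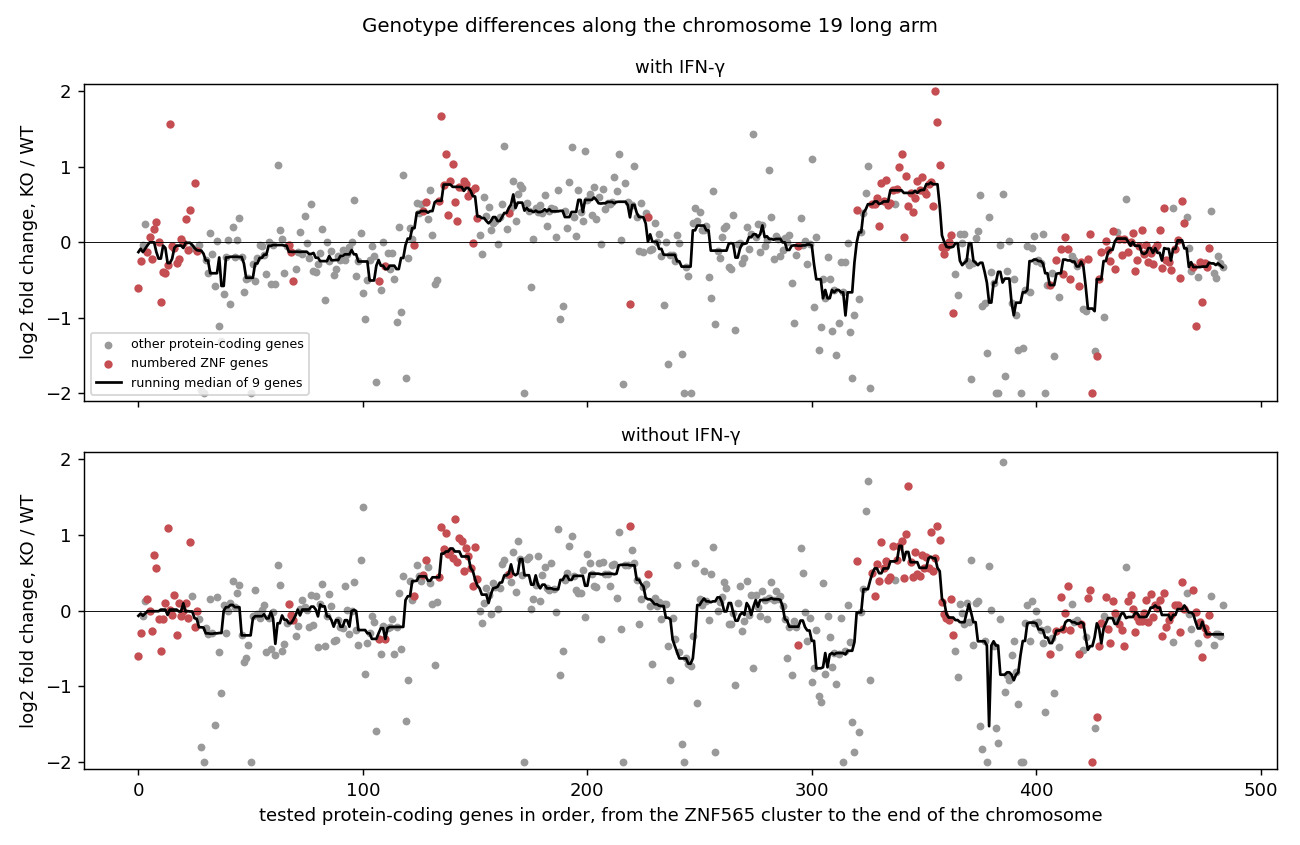
Log2 fold change of SDC3-KO over WT cells for tested protein-coding genes in order along the long arm of chromosome 19, with IFN-γ (top) and without (bottom); values beyond 2 either way are drawn at the edge. Red points are numbered ZNF genes, grey points other genes, and the line is a running median of 9 genes, which stands above 0 over the ZNF575 to ZNF296 cluster and the genes that follow it, and again over ZNF175 to ZNF665, and is near or below 0 before, between and after these stretches.

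Shared sequence and overlapping exons touch many members: 57 of 247 have over 5% of their 75-base stretches elsewhere, and 88 have over 5% of their exon bases under another gene. Among members at or below both limits, 9 of 11 tested at 43.5 to 45.1 Mb were higher with IFN-γ and 10 without, and none was lower. At 51.6 to 53.6 Mb, 18 of 24 such members were higher and 1 was lower in either treatment. ZNF468 and ZNF320, at 51.6 to 53.6 Mb, share nearly all their stretches with other genes and their separate values are uncertain.

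At 55.5 to 58.5 Mb, the cluster nearest the long-arm telomere, the balance was the other way. With IFN-γ 2 of 55 tested members were higher in SDC3-KO cells and 18 lower (median -0.16), beside 22.9% and 24.3% of all genes. Without it 2 were higher and 15 lower (median -0.09), beside 25.4% and 24.8% of all genes. The balance thus came more from few higher calls than from many lower ones. ZNF470 (chr19:56567511-56588911, plus strand) had 3.16, 3.99 and 3.36 CPM in SDC3-KO cells with IFN-γ, against 8.90, 10.4 and 10.6 CPM in WT cells with IFN-γ (log2 fold change -1.51, SE 0.13, edgeR adjusted p = 2.13e-11). It was lower by a similar amount without IFN-γ (-1.40, adjusted p = 1.99e-11), with no overlap between genotypes. Its neighbour ZNF471, named after its values were seen, had 0 counts in all 6 SDC3-KO libraries. It had 0.641, 0.836 and 0.608 CPM in WT cells with IFN-γ and 0.915, 0.802 and 0.939 CPM in WT cells without it. Taking 3 counts in the 3 knockout libraries together as the floor, ZNF471 was 17.6-fold lower in SDC3-KO cells with IFN-γ and 26.5-fold lower without. The mates of a pair were counted one by one, so 3 counts can stand for fewer than 3 fragments. These folds are therefore not firm lower bounds.

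ZNF274, known to bind the coding ends of other zinc finger genes and to bring SETDB1 to them, also fell in this cluster. It had 35.8, 37.5 and 31.8 CPM in SDC3-KO cells with IFN-γ, against 49.3, 48.0 and 48.0 CPM in WT cells with IFN-γ (log2 fold change -0.47, SE 0.06, edgeR adjusted p = 9.16e-08). Without IFN-γ it had 42.1, 43.8 and 44.1 CPM in SDC3-KO cells, against 51.9, 53.6 and 53.4 CPM in WT cells (-0.29, adjusted p = 9.51e-05). ZNF132 fell by 0.79 and 0.61 on the log2 scale with and without IFN-γ (edgeR adjusted p = 4.55e-05 and 4.23e-04). ZNF837 fell with IFN-γ (-1.11, edgeR adjusted p = 0.00633), while without it the value was -0.02 (adjusted p = 0.957).

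The short-arm clusters and the one at 36.2 to 37.8 Mb had medians between -0.23 and 0.27 with IFN-γ and between -0.01 and 0.36 without. The highest of these was at 19.7 to 24.1 Mb, where 8 of 25 members were higher and 3 lower with IFN-γ, and 12 higher and 2 lower without. ZNF91, which represses SVA transposons, lies there and rose. It had 31.3, 30.0 and 33.8 CPM in SDC3-KO cells with IFN-γ, against 24.0, 22.4 and 22.1 CPM in WT cells with IFN-γ (log2 fold change 0.47, SE 0.08, edgeR adjusted p = 3.83e-06). ZNF93, a repressor of LINE-1 elements from the same cluster, was lower with IFN-γ (-0.35, edgeR adjusted p = 0.00271) and had a value of -0.11 without (adjusted p = 0.299). ZNF675, reported to bind TRAF6, rose by 0.43 and 0.35 (edgeR adjusted p = 0.00258 and 0.00897); the call without IFN-γ was lost on leaving out SDC3-KO replicate 3 (adjusted p = 0.0826). ZNF506 had 3.89, 4.52 and 4.66 CPM in SDC3-KO cells with IFN-γ, against 10.7, 7.37 and 9.47 CPM in WT cells with IFN-γ (-1.07, SE 0.14, edgeR adjusted p = 8.01e-08).

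Single members outside the higher clusters moved far in both directions. ZNF558, at 7.1 to 9.8 Mb and known to repress the mitophagy gene SPATA18 in human neural progenitors, was lower in SDC3-KO cells. It had 4.42, 4.68 and 4.74 CPM in SDC3-KO cells with IFN-γ, against 11.1, 12.4 and 10.9 CPM in WT cells with IFN-γ (log2 fold change -1.31, SE 0.11, edgeR adjusted p = 2.82e-11). Without IFN-γ the log2 fold change was -1.21 (adjusted p = 4.69e-11). ZNF433 fell by 1.03 and 1.54 on the log2 scale with and without IFN-γ (edgeR adjusted p = 7.78e-04 and 1.45e-06). ZNF556 was lower with IFN-γ at low counts (-1.72, edgeR adjusted p = 3.96e-04). ZNF536, a scattered gene best known from neurons, had 0 counts in SDC3-KO cells with IFN-γ. In WT cells with IFN-γ it had 0.842, 0.532 and 0.869 CPM. By the floor used for ZNF471 it was 18.6-fold lower, which is likewise not a firm lower bound. Without IFN-γ ZNF536 was also called lower, with the largest fall of the members named by rule.

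ZNF44 rose in SDC3-KO cells by 0.47 with IFN-γ and 0.46 without on the log2 scale (edgeR adjusted p = 2.51e-04 and 1.93e-04). ZNF358 rose by 0.74 and 1.10 (edgeR adjusted p = 1.10e-04 and 3.80e-08). ZNF491 rose without IFN-γ (1.93, SE 0.50, edgeR adjusted p = 0.00181), from counts worth at most 1.32 CPM. At low counts, ZNF568 was called higher with IFN-γ (1.56), and its value without it was 0.01. ZNF541 was called higher without IFN-γ (1.12), and its value with it was -0.82. That call for ZNF541 was lost on leaving out SDC3-KO replicate 2 or WT replicate 3. ZNF382 rose without IFN-γ (0.74, edgeR adjusted p = 7.57e-04) and had a value of 0.17 with it (adjusted p = 0.463). ZNF420, which binds p53, did not pass in either (-0.04 and -0.06, edgeR adjusted p = 0.837 and 0.745).

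The genotype differences with and without IFN-γ come from separate libraries. Across the 214 members they correlated at Pearson's r = 0.876 and Spearman's rho = 0.804, and 173 had the same sign; over all 17119 genes r was 0.715, and over the 194 members at 1 CPM or more it was 0.831. Members are not replicates, and all share the same lines and counting. Of the 69 members higher with IFN-γ, 63 were also among the 83 higher without it (91.3% and 75.9%). Of the 34 lower with IFN-γ, 24 were among the 30 lower without it (70.6% and 80.0%).

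With IFN-γ, more members were lower than higher in both genotypes. In SDC3-KO cells 11 of 214 members were higher with IFN-γ and 100 lower, beside 29.2% and 31.8% of all genes (61.1% in either direction), and the median log2 fold change was -0.28 against -0.05 over all genes. In WT cells 18 were higher and 84 lower, beside 28.6% and 27.9% of all genes (56.5% in either direction), with medians of -0.21 and -0.02. The all-gene median moved to -0.35 in SDC3-KO cells and -0.27 in WT cells with library totals as the only scaling. The members' median stood below it by 0.23 and 0.19 there, beside 0.22 and 0.19 with TMM scaling. A change of scaling moves all genes by nearly the same amount, so this gap was bound to stay and tests nothing. Numbered ZNF genes of other chromosomes had 46 higher and 70 lower of 230 in SDC3-KO cells (median -0.08) and 57 higher and 54 lower in WT cells (median -0.02). The proliferation genes above were also much lower with IFN-γ in both genotypes; their part in this result was not tested. In bulk libraries, fewer cells expressing a gene and less of its RNA per cell cannot be told apart.

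By cluster, the lowest median in SDC3-KO cells was at 19.7 to 24.1 Mb (-0.49, 13 of 25 lower and none higher), which was also the lowest in WT cells (-0.40, 10 lower and none higher). The cluster at 36.2 to 37.8 Mb had -0.41 in SDC3-KO cells and -0.33 in WT cells, with 15 and 12 of 24 lower and none higher. The 43.5 to 45.1 Mb cluster had -0.24 and -0.23, and the 51.6 to 53.6 Mb cluster -0.22 and -0.28, in SDC3-KO and WT cells. At 55.5 to 58.5 Mb the medians were -0.23 and -0.12, with 6 members higher in each genotype. The smallest shifts were at 7.1 to 9.8 Mb (-0.11 in SDC3-KO cells, -0.05 in WT cells), except for the 5 members at 2.8 to 2.9 Mb, which had -0.45 in SDC3-KO cells and -0.03 in WT cells. Single libraries moved some of these medians. In WT cells the median at 43.5 to 45.1 Mb was -0.10 without untreated replicate 1, and that at 55.5 to 58.5 Mb was -0.061 without IFN-γ replicate 1. At 7.1 to 9.8 Mb leaving out single libraries gave -0.13 (IFN-γ replicate 1) to -0.022 (untreated replicate 1) in WT cells, and -0.062 in SDC3-KO cells without IFN-γ replicate 2. At 2.8 to 2.9 Mb the WT median ran from -0.062 without IFN-γ replicate 2 to 0.025 without IFN-γ replicate 3.

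**Figure D3:**
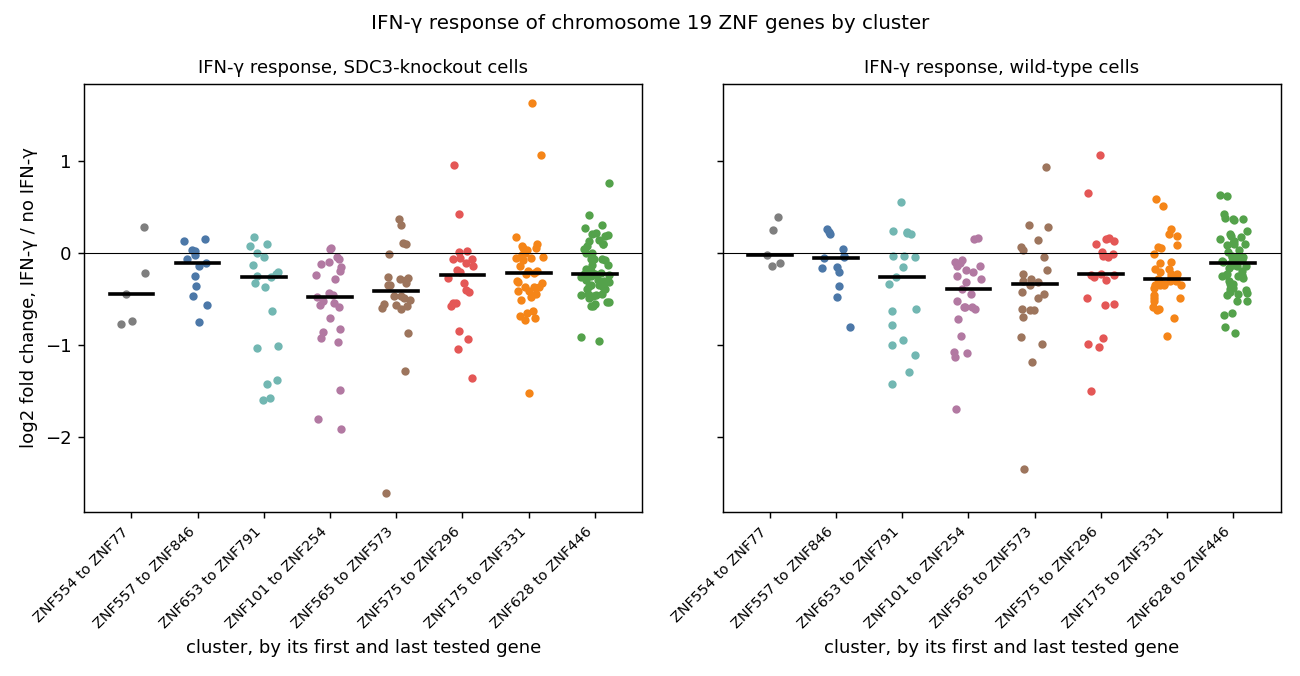
Log2 fold change of IFN-γ-treated over untreated cells for the tested members of each cluster, in SDC3-KO cells (left) and WT cells (right). Points are genes and bars are cluster medians, which lie below 0 in all 8 clusters and both genotypes with all libraries in, though only just for ZNF554 to ZNF77 in WT cells (-0.03, and 0.025 without IFN-γ replicate 3), and are lowest for ZNF101 to ZNF254 (-0.49 in SDC3-KO and -0.40 in WT cells).

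ZNF850, at 36.2 to 37.8 Mb, fell most with IFN-γ in both genotypes among called members that reached 1 CPM in the higher group and did not overlap. It had 0.486, 0.733 and 0.688 CPM with IFN-γ in SDC3-KO cells, against 3.49, 3.67 and 4.52 CPM without it (log2 fold change -2.61, SE 0.23, edgeR adjusted p = 1.72e-11). In WT cells it had 1.04, 1.29 and 0.956 CPM with IFN-γ, against 4.57, 6.23 and 6.07 CPM without it (-2.35, SE 0.21, adjusted p = 1.18e-11). No treated library came near an untreated one. Its promoter is shown because it carries the longer element, in capitals, and no TTCTGGGAA.
ZNF850, chr19:36772758-36773057, minus strand: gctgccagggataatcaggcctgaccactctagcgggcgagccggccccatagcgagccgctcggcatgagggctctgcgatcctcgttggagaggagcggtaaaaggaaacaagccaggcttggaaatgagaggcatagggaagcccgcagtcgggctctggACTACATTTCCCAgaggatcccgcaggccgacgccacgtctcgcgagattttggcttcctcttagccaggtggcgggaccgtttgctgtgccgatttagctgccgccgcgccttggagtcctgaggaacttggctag

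ZNF443 fell by 1.42 on the log2 scale in SDC3-KO cells and by 1.11 in WT cells (edgeR adjusted p = 4.38e-06 and 1.72e-04). ZNF69 fell by 1.58 and 1.30 (edgeR adjusted p = 5.72e-04 and 0.00605). ZNF493 fell by 0.97 and 1.13 (edgeR adjusted p = 1.81e-05 and 7.46e-06). ZNF724, at most 1.42 CPM, fell by 1.91 and 1.69 (edgeR adjusted p = 6.59e-04 and 4.35e-04). ZNF730 fell in SDC3-KO cells (-1.49, edgeR adjusted p = 0.00542) and had a value of -1.08 in WT cells (adjusted p = 0.0571). ZNF404, higher in the knockout, fell with IFN-γ by 0.93 in SDC3-KO cells and 1.51 in WT cells on the log2 scale (edgeR adjusted p = 2.74e-04 and 2.08e-05).

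ZNF331, the outermost gene of the 51.6 to 53.6 Mb cluster and imprinted in several human tissues, fell further in the knockout. It had 4.21, 4.64 and 4.51 CPM with IFN-γ in SDC3-KO cells, against 14.04, 11.9 and 12.7 CPM without it (log2 fold change -1.53, SE 0.12, edgeR adjusted p = 4.92e-13). In WT cells it had 8.58, 7.45 and 9.73 CPM with IFN-γ, against 15.2, 15.2 and 17.8 CPM without it (-0.91, SE 0.11, adjusted p = 7.30e-09). The difference of the responses was -0.62 (SE 0.16, adjusted p = 0.00641). Of the panel of better-known members, ZNF93 and ZNF420 fell in both genotypes: ZNF93 by 0.83 in SDC3-KO cells and 0.59 in WT cells, and ZNF420 by 0.60 and 0.61. ZNF274 fell in SDC3-KO cells (-0.31, edgeR adjusted p = 4.22e-05), with a value of -0.13 in WT cells (adjusted p = 0.0593). ZNF91, ZNF160, ZNF675, ZNF44, ZNF382 and ZNF558 did not pass in either genotype, with values from -0.29 to 0.28.

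Few members rose with IFN-γ. ZNF296, whose mouse counterpart is known from pluripotent cells, had 12.3, 14.9 and 10.4 CPM with IFN-γ in SDC3-KO cells, against 6.16, 6.95 and 6.26 CPM without it (log2 fold change 0.95, SE 0.13, edgeR adjusted p = 7.02e-08). In WT cells it had 10.6, 8.85 and 9.26 CPM with IFN-γ, against 3.93, 4.56 and 5.27 CPM without it (1.05, SE 0.13, adjusted p = 4.53e-08). Treated and untreated libraries were apart in both genotypes. ZNF347 rose by 1.07 in SDC3-KO cells and by 0.59 in WT cells on the log2 scale (edgeR adjusted p = 9.94e-14 and 2.01e-06). ZNF224 rose by 0.42 and 0.64 (edgeR adjusted p = 1.09e-04 and 9.22e-07). Its promoter is printed because the gene goes against the fall of its cluster and holds 2 copies of TTCTGGGAA; TTCTGGGAA and the longer element are in capitals. The neighbour ZNF225, with 4 copies, fell by 0.43 on the log2 scale in SDC3-KO cells and by 0.24 in WT cells.
ZNF224, chr19:44094111-44094410, plus strand: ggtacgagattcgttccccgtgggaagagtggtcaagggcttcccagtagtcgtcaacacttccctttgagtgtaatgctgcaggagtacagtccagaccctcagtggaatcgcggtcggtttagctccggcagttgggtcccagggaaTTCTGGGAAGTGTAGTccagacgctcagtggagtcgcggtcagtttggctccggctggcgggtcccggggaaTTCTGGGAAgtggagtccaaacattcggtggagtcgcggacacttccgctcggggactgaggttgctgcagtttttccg

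ZNF580 rose in WT cells by 0.61 and in SDC3-KO cells by 0.20 (edgeR adjusted p = 7.99e-08 and 0.0318), and ZNF865 by 0.38 and 0.21 (adjusted p = 1.93e-05 and 0.0120). In SDC3-KO cells ZNF460 rose by 0.76, ZNF579 by 0.40 and ZNF773 by 0.30 (edgeR adjusted p = 0.00892, 0.00293 and 0.0212). With library totals as the only scaling the calls in SDC3-KO cells for ZNF224, ZNF460, ZNF579 and ZNF773 were lost (edgeR adjusted p = 0.226, 0.0975, 0.418 and 0.966), as was that for ZNF865 in WT cells (0.111). The call for ZNF773 was also lost with upper-quartile scaling and without IFN-γ replicate 1, untreated replicate 2 or untreated replicate 3 of the SDC3-KO cells. ZNF541, a gene known from meiosis in mice, rose in WT cells (1.25, edgeR adjusted p = 0.00292) from under 1 CPM.

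**Figure D4:**
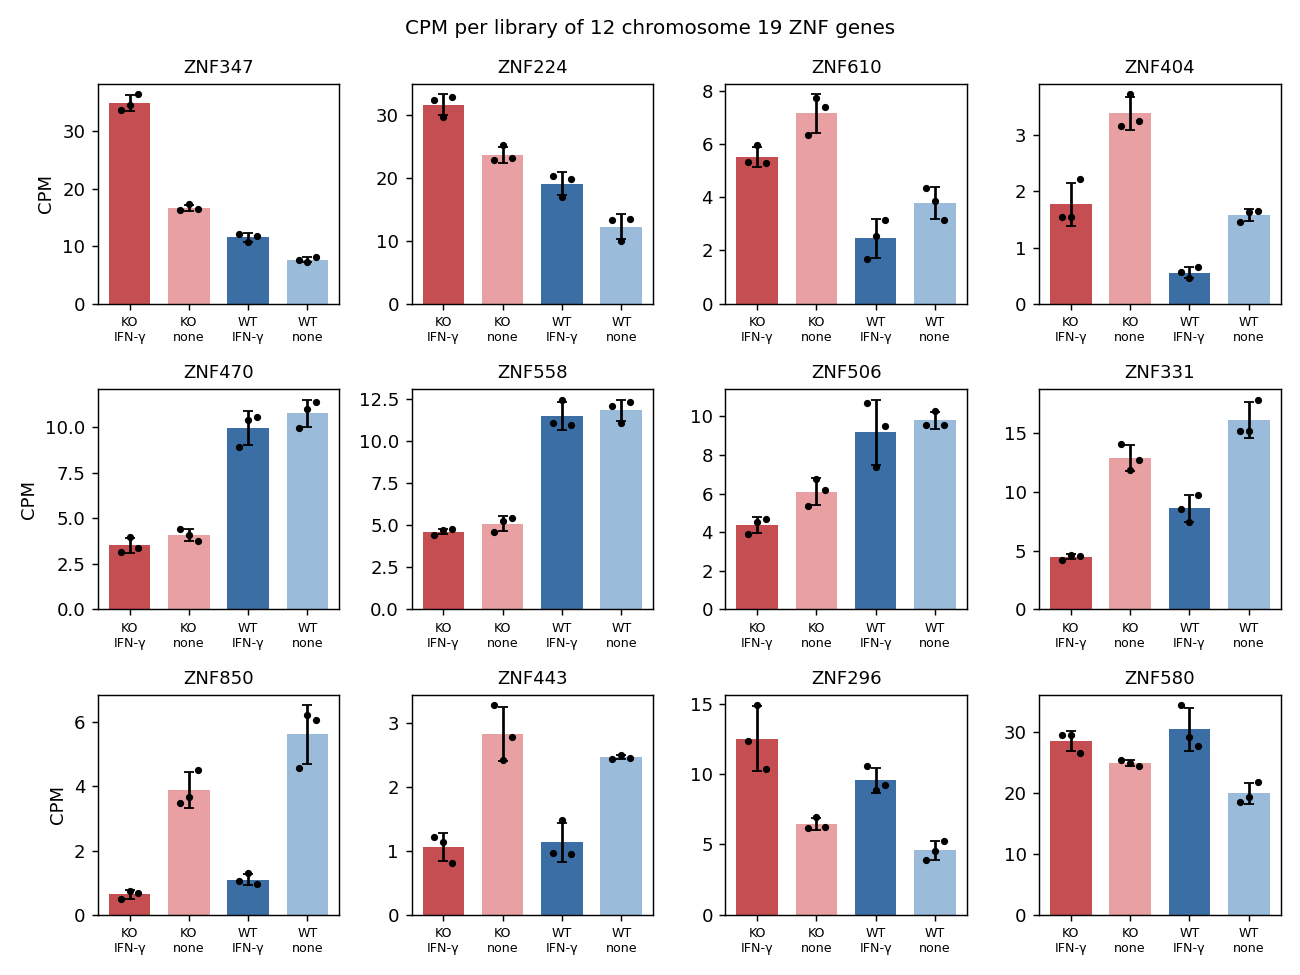
CPM of 12 numbered ZNF genes of chromosome 19 in each library; bars are means, error bars SDs (n = 3), points libraries, with SDC3-KO (KO) left of WT and IFN-γ left of none (no IFN-γ). ZNF347 and ZNF224 are highest in SDC3-KO cells with IFN-γ, ZNF470 and ZNF558 are lower in both SDC3-KO groups, and ZNF850 is low in both IFN-γ groups.

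The IFN-γ responses of both genotypes also come from separate libraries, and across the 214 members they correlated at r = 0.605 and rho = 0.610, with 172 of the same sign (80.4%). Over all 17119 genes r was 0.871 and rho 0.813, with 83.0% of the same sign, and over the 194 members at 1 CPM or more r was 0.776. Of the 100 members lower in SDC3-KO cells, 68 were among the 84 lower in WT cells (68.0% and 81.0%). The difference of the responses itself passed the test for 3 members upward and 7 downward in SDC3-KO against WT cells, beside 7.61% and 7.86% of all genes (15.5% in either direction). ZNF347 responded more strongly in the knockout (0.48, SE 0.12, edgeR adjusted p = 0.00493). ZNF541 differed most (-1.94, SE 0.49, adjusted p = 0.00517), at low counts. The 2 called members not named by rule, ZNF302 and ZNF780A, differed by -0.29 and -0.39 and were named after their values were seen.

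The corepressors that KRAB zinc finger proteins use were read beside them, from a list of 18 genes. With IFN-γ 4 were higher in SDC3-KO cells and 5 lower, beside 22.9% and 24.3% of all genes. Without it 4 were higher and 4 lower, beside 25.4% and 24.8% of all genes. TRIM28, itself on chromosome 19, averaged 194 CPM in SDC3-KO cells with IFN-γ and 270 CPM in WT cells with IFN-γ, a log2 fold change of -0.48, and -0.31 without IFN-γ. SETDB1 averaged 156 CPM in SDC3-KO cells with IFN-γ and 116 CPM in WT cells with IFN-γ, a log2 fold change of 0.43, and 0.53 without. ATF7IP, the partner of SETDB1, rose by 0.66 and 0.61. UHRF1, a reader of DNA methylation that is high in dividing cells, fell in SDC3-KO cells with IFN-γ by 1.69. It did not pass without IFN-γ (-0.20, edgeR adjusted p = 0.124). CHD3, a remodelling subunit, fell by 0.86 with IFN-γ and by 0.35 without. The difference of the responses passed for both UHRF1 and CHD3 (-1.49 and -0.52, edgeR adjusted p = 5.87e-07 and 3.76e-06). IFN-γ raised 5 and lowered 7 of the list in SDC3-KO cells, and raised 5 and lowered 8 in WT cells. Of all genes, 61.1% and 56.5% were called in either direction in SDC3-KO and WT cells. With IFN-γ UHRF1 fell by 2.68 in SDC3-KO cells and by 1.19 in WT cells, and CHD3 by 1.23 and 0.71. TASOR rose by 0.33 and 0.38 and CBX3 by 0.36 and 0.29.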

How the data were processed

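Poly(A) RNA was sequenced in 12 libraries. The deposited values are raw read counts by gene on hg38. According to the file headers the authors used featureCounts 2.0.3 over exons with primary alignments and no strand option, so reads of overlapping or antisense genes are not separable. The 2 mates of a pair entered one by one: 70.4% to 73.3% of counts from 1 to 19 were even. STAR 2.7.10b and BWA (alignment), fastp 0.23.2, Picard 2.27.5, Subread, MultiQC 1.13 and FastQC are named in the submitters' processing notes. The annotation release is not given in the sources used here, and 234 of 247 members had the same bounds in GENCODE 29, which gave biotypes, fingers and overlaps.

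From the deposited counts, CPM with TMM scaling and edgeR 4.0.16 quasi-likelihood tests (filterByExpr; 1 fit of 12 libraries, group as the only term; 17119 genes; Benjamini-Hochberg adjustment over all of them) were computed here. A call means an adjusted p under 0.05, two-sided. Alternatives included other scalings, filters, DESeq2 1.42.0, leaving out each library and other cluster gaps. Nothing in the labels shows that replicates came from separate cultures, so p-values measure the spread between these libraries. The fit was tested on simulated data. For SDC3-KO against WT with IFN-γ, 66.0% of genes changed 1.5-fold and 91.5% of those changed 2-fold were called. Few genes were changed there, and all groups started from the mean levels of WT cells with IFN-γ. These shares need not hold for the members. Genes were named by size of change: the 6 largest called rises and falls per comparison whose groups did not overlap and whose higher group reached 1 CPM (4 each way for the difference of responses), a panel of 11 members, SDC3 and the largest corepressor changes. The members, lists and clusters were chosen with earlier results of these data known. The planned promoter motif searches are not reported here.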

Additional observations from a re-analysis of the deposited data

Results flagged for a closer look

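In 8 named members the IFN-γ response differed between SDC3-KO and WT cells at an adjusted p under 0.05 for the difference itself (edgeR). It was higher in SDC3-KO cells for ZNF568 (1.55), ZNF121 (0.51) and ZNF347 (0.48). It was lower for ZNF541 (-1.94), ZNF792 (-0.67), ZNF331 (-0.62), ZNF554 (-0.60) and ZNF580 (-0.41). ZNF568 had 1.78, 1.47 and 0.841 CPM with IFN-γ in SDC3-KO cells, against 0.576, 1.79 and 0.775 CPM without it. In WT cells it had 0.481, 0.532 and 0.348 CPM with IFN-γ, against 0.915, 1.23 and 0.973 CPM without it. ZNF121 had a response of 0.03 in SDC3-KO cells and fell by 0.48 on the log2 scale in WT cells. ZNF792 fell by 0.82 in SDC3-KO cells and had a value of -0.14 in WT cells. ZNF554 fell by 0.74 in SDC3-KO cells and had a value of -0.14 in WT cells.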

How the results depend on the processing

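There were 20 alternative fits, and the main fit was also regrouped with other cluster gaps. Scaling and the gap between clusters changed a count or a cluster median most. With IFN-γ against none, library totals as the only scaling gave 3 members higher and 175 lower in SDC3-KO cells, and 5 higher and 148 lower in WT cells. For the corepressors it gave 0 higher and 15 lower in SDC3-KO cells, and 1 higher and 14 lower in WT cells. It turned DNMT1 (-0.050), NCOR1 (-0.17) and SETDB1 (-0.10) in SDC3-KO cells and NCOR1 (-0.13) in WT cells to below 0. Upper-quartile scaling gave 6 members higher in SDC3-KO cells and 8 in WT cells, and 3 corepressors higher and 11 lower in SDC3-KO cells. Such a shift follows from the scaling itself, since the all-gene median moved with it.

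For SDC3-KO against WT cells with IFN-γ, library totals gave cluster medians of 0.021 at 7.1 to 9.8 Mb, 0.083 at 11.5 to 12.6 Mb, 0.19 at 19.7 to 24.1 Mb, 0.57 at 43.5 to 45.1 Mb, 0.50 at 51.6 to 53.6 Mb and -0.24 at 55.5 to 58.5 Mb. Without IFN-γ the last was -0.12. A gap of 0.5 Mb split ZNF296 off the cluster at 43.5 to 45.1 Mb, and the rest had a median of 0.68 with IFN-γ. It split the 55.5 to 58.5 Mb cluster before ZNF264, and the part from there on had -0.13 with IFN-γ and -0.060 without. A gap of 2 Mb widened clusters. That at 43.5 to 45.1 Mb then began at ZNF546 and had a median of 0.53 with IFN-γ. The members at 7.1 to 9.8 Mb were joined to those at 11.5 to 12.6 Mb, with a median of 0.24 without IFN-γ. The gap of 2 Mb also joined the outermost clusters of the long arm into 1, with a median of 0.0049 with IFN-γ and 0.13 without, by its own construction. For the difference of the responses, corepressors called higher were 2 with size factors of the DESeq2 type, 1 without the low-count filter and 2 by DESeq2, and members called lower were 4 by DESeq2; the cause was not tested.

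Leaving out each library in turn gave, for that difference, 1 to 3 members higher, 4 to 10 lower and 0 to 2 corepressors higher. With IFN-γ the medians ran from -0.30 to -0.089 at 2.8 to 2.9 Mb, 0.10 to 0.24 at 11.5 to 12.6 Mb, 0.18 to 0.31 at 19.7 to 24.1 Mb, 0.63 to 0.70 at 43.5 to 45.1 Mb, 0.58 to 0.67 at 51.6 to 53.6 Mb and -0.19 to -0.14 at 55.5 to 58.5 Mb. Without IFN-γ the last ran from -0.13 to -0.079. The calls for the difference in ZNF554, ZNF568, ZNF792 and ZNF121 were lost under 14, 12, 9 and 3 of 19 alternatives. For pairing, the deviations of libraries from their group means were correlated between groups over well-counted genes. Same-numbered libraries gave -0.16 to 0.22, and differently numbered ones -0.20 to 0.21. With 3 libraries per group these values cannot settle whether libraries were paired. With the replicate number as a block, 70 members were higher and 34 lower with IFN-γ, and 82 higher and 29 lower without. Low counts limit ZNF491, ZNF541, ZNF556 and ZNF568, which stayed under 2 CPM on average.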
